A study of Homo sapiens with 9 samples.

Results

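The ATP-dependent chromatin remodellers examined here are 54 genes for the ATPases and the partner subunits of the SWI/SNF, ISWI, CHD/NuRD and INO80/SRCAP/TIP60 families, together with ATRX and HELLS. They were taken as a fixed list of symbols and matched to the gene identifiers of the count table without the version number. All 54 were found among the 60648 gene lines used, and 53 passed the filter on low counts. ACTL6B, the neuronal actin-like subunit of SWI/SNF, did not. No measured value enters the rule for the list, which was drawn up with earlier results of these data known.

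The study compared HEK293-derived cells, an established human embryonic kidney line. TC4-2A cells express the circular RNA C2A–2B–3–4, made of early exons of SMN1/2. TL4-2A cells express L2A–2B–3–4, a linear RNA with those exons. By PCR the study also detected linear L2A–2B–3–4 in TC4-2A cells, where it is the precursor of the circular RNA. The inserted lines therefore do not contrast circular RNA alone with linear RNA alone. T-REx is the parental line without an insertion and served as the control. All 3 lines received doxycycline (Dox), which switches on the inserted genes, for 96 h, the T-REx cells included. Total RNA depleted of rRNA was sequenced in 3 libraries per line. Whether the inserted lines are single clones or pools is not given in the sources used here. Effects of the expressed RNA and any other difference between the separately derived lines cannot be told apart. Nothing in the sources says that the 3 libraries came from separate cultures, so p-values measure the spread between these libraries, which may be technical.

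Chromatin remodellers use ATP to slide, evict or exchange nucleosomes, and so set which DNA is open to transcription, replication and repair. SWI/SNF complexes, with the ATPase SMARCA2 or SMARCA4, mainly open chromatin. ISWI complexes, with SMARCA1 or SMARCA5, space nucleosomes regularly. NuRD joins the ATPases CHD3, CHD4 or CHD5 to histone deacetylases and is best known for repression. INO80, SRCAP and the EP400-containing TIP60 complex exchange histone H2A variants such as H2A.Z. Many subunits come as paralogs that take the same place in a complex, so the balance between paralogs defines which version of the complex can form.

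Total counts in genes ranged between 16561680 and 21491977 per library, and values are given as CPM, the counts of a gene scaled to the library total, after TMM scaling, which corrects for composition. TMM factors lay between 0.9906 and 1.0141. The first 2 principal components, with 38.9% and 27.2% of the variance, separated the 3 lines. Of the HEK293 markers, IRS4 was at 2320 to 3810 CPM, NEFL at 115 to 223 CPM and CDH2 at 114 to 131 CPM, PAX2 at 6.42 to 9.44 CPM and NEFM at 1.29 to 2.92 CPM. IRS4 was highest in TL4-2A cells (3670 to 3810 CPM), and NEFL was lower in both inserted lines than in T-REx cells (115 to 133 CPM, against 212 to 223 CPM). Markers of blood, endothelium, liver, muscle and keratinocytes did not exceed 0.324 CPM in any library.

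The remodeller genes collected many reads. Their median was 7.32 log2 CPM, against 3.88 log2 CPM over all 19473 genes tested. Per kilobase of exon, RUVBL2, an AAA+ helicase shared by the INO80, SRCAP and TIP60 complexes, had the highest level of the list in every line (TC4-2A 47.1 ± 1.64, TL4-2A 48.3 ± 0.169 and T-REx 45.9 ± 1.18 CPM per kb, SD, n = 3 each). With the length of the longest transcript in place of all exons it stayed first in TC4-2A and T-REx cells and was second in TL4-2A cells. ACTL6B was last under both lengths, with 4 to 8 reads per library in TC4-2A cells, 2 or 3 in TL4-2A cells and 2 in each T-REx library. No fold change is given for it. Among the motor subunits, SMARCA4 stood above SMARCA2 per kb in every line (26.3 ± 0.717 against 7 ± 0.162 CPM per kb in T-REx cells), and SMARCA5 above SMARCA1 (26.5 ± 0.604 against 20.9 ± 0.433 CPM per kb in T-REx cells).

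The exons of 16 genes of the list overlap those of other genes on the same strand, and for 3 of them the share is 10% or more. In the Gencode v44 annotation (counting used v33), 73.1% of the exon bases of SRCAP, 46.9% of those of CHD4 and 18.9% of those of SMARCE1 also belong to another annotated gene on the same strand. Each of those partner genes averaged 0 to 0.0483 CPM per line. SRCAP lay at 26.7 to 41.3 CPM, CHD4 at 24 to 34.5 CPM and SMARCE1 at 30.8 to 33.7 CPM, and how reads in shared exons were assigned is not given in the sources used here. Their levels may therefore not be comparable with those of other genes, which also touches the 3 pairs below that hold CHD4 or SRCAP. On the opposite strand, 41.8% of the exon bases of BRD7 are shared with ADCY7, 26.9% of those of SMARCD3 with CHPF2 and 17.7% of those of SMARCB1 with DERL3. With either strand counted, 11 genes of the list share 10% or more. The libraries kept strand, but whether counting used it is not given in the sources used here.

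What changed in cells with the circular RNA was asked first. In TC4-2A cells 29 of the 53 tested genes differed from T-REx cells at an adjusted p under 0.05 and are called changed (edgeR quasi-likelihood test, Benjamini-Hochberg over all genes), against 28.8% of all genes tested. Of these, 22 were higher and 7 lower, where 14.2% and 14.6% of all genes were. Abundant genes pass this test more often. Among the 2765 tested genes at or above the lower quartile of the remodellers in abundance, 50.3% were called, 31.4% higher and 18.9% lower. The 54.7% of the remodellers was close to that share in total. By direction, 41.5% of the remodellers were higher and 13.2% lower, a tilt that was not tested. In bulk RNA, a change in the make-up of the cell population and a change in RNA per cell cannot be told apart. The changes were small, with a median log2 fold change of 0.046 over the list and 0.004 over all genes, and a range of -0.21 to 0.50. By edgeR and by DESeq2, 0 of the list were called with more than a 1.5-fold change (0 also at an unadjusted p under 0.05), as 5.11% of all genes were by edgeR. The libraries of TC4-2A and T-REx cells did not overlap for 34 of the 53, against 40.3% of all genes.

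The second comparison asked the same of the linear RNA. In TL4-2A cells 36 of 53 differed from T-REx cells, 28 higher and 8 lower. All genes were called in 44.3% of cases, 21.9% higher and 22.5% lower. Abundant genes were called in 63.5%, 36.5% higher and 27.1% lower. The list was close to them in total, at 67.9%, but with 52.8% higher and 15.1% lower. That tilt was not tested. The median log2 fold change was 0.087, against -0.001 over all genes, and the range was -1.80 to 0.64. CHD5 and BAZ2B were called with more than a 1.5-fold change, where 11.3% of all genes were. The libraries did not overlap for 41 of the list, against 51.6% of all genes. In the direct comparison of TC4-2A with TL4-2A cells 26 of 53 were called, 9 higher and 17 lower in TC4-2A cells. That is 17.0% higher and 32.1% lower. All genes were called in 35.4% of cases (17.6% higher and 17.8% lower) and abundant genes in 52.7% (26.3% higher and 26.4% lower). There CHD5, BAZ2B and SMARCD3 passed 1.5-fold, against 8.22% of all genes, and libraries did not overlap for 31 of the list, against 44.9% of all genes.

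Both comparisons with T-REx cells use the same 3 T-REx libraries, so a deviation of those libraries enters both. The values of each comparison are therefore given side by side for each gene. The summed level of the list was 9528 ± 84.6 CPM in TC4-2A cells, 9581 ± 85.9 CPM in TL4-2A cells and 9003 ± 81.5 CPM in T-REx cells (SD, n = 3 each). Genes with many reads weigh most in this sum, such as TRRAP with means of 623, 499 and 482 CPM in the same order. A sum over other genes was not computed, so the difference is not shown to be particular to remodellers.

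**Figure D1:**
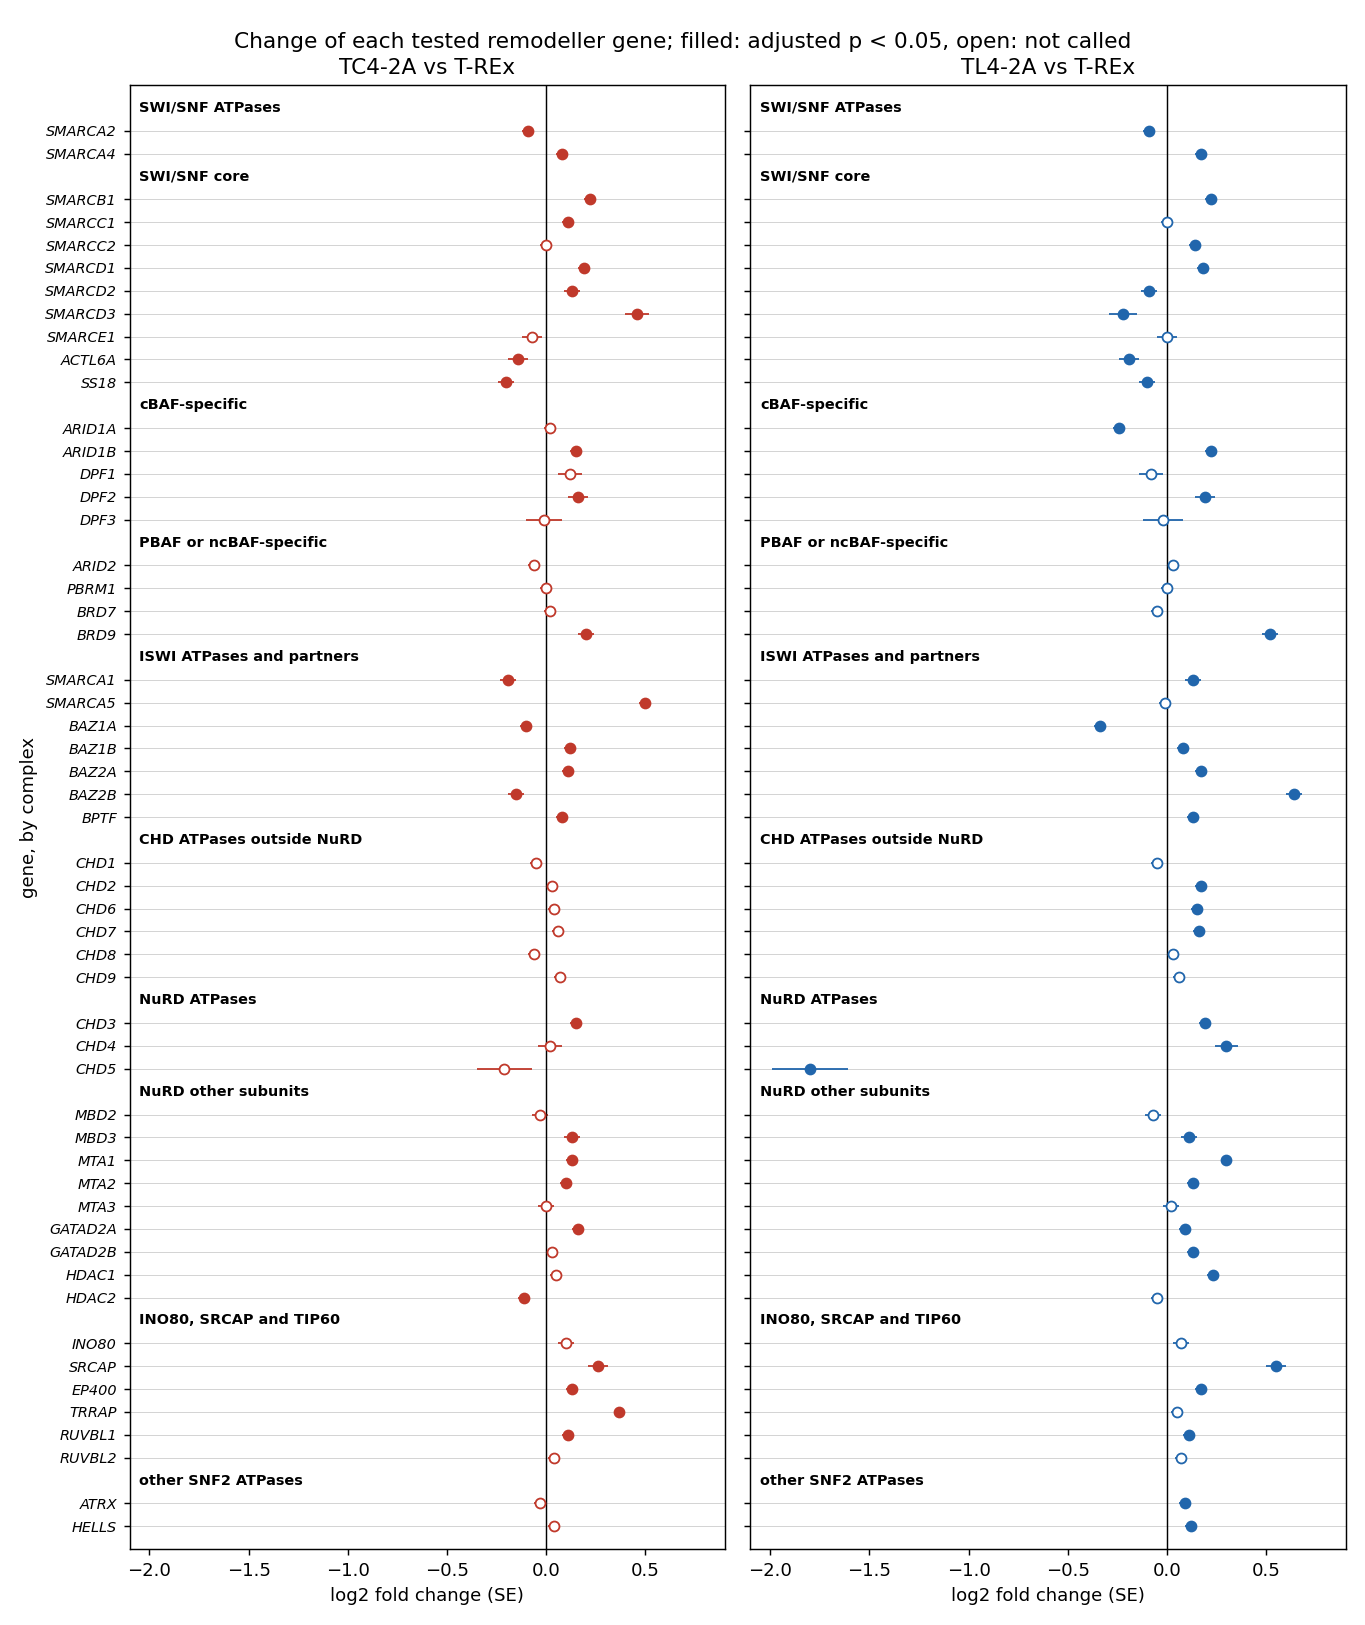
Log2 fold change (x axis, with SE) of each of the 53 tested remodeller genes against T-REx cells, grouped by complex, in TC4-2A cells (left, red) and TL4-2A cells (right, blue); filled points had an adjusted p under 0.05. Most points lie within 0.3 of 0, SMARCA5, SMARCD3 and TRRAP stand to the right in TC4-2A cells, and CHD5 at -1.80 stands far to the left in TL4-2A cells.

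All 7 ISWI genes were called in TC4-2A cells, 4 higher and 3 lower, and 6 of 7 in TL4-2A cells, 5 higher and 1 lower. All genes were called in 28.8% and 44.3% of cases and abundant genes in 50.3% and 63.5%, and the counts of the other complexes are to be read against the same shares. The abundant genes start at the lower quartile of the list, so some genes of these complexes lie below them. SMARCA5 (SNF2H), the ISWI ATPase of most cell types, had 304, 305 and 305 CPM in TC4-2A cells and 207, 219 and 217 CPM in TL4-2A cells, against 211, 215 and 220 CPM in T-REx cells. The TC4-2A libraries stood apart from all the others, and those of the other lines overlapped. SMARCA5 rose in TC4-2A cells by a log2 fold change of 0.50 ± 0.03 (SE, adjusted p = 9.3e-17), the largest rise of the list there, and was at -0.01 ± 0.03 in TL4-2A cells (adjusted p = 0.851). It lies on chromosome 4 (GRCh38, 143513702 to 143557486, plus strand).

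SMARCA1 (SNF2L), the paralog that can take the place of SMARCA5, moved the other way. It had 80.6, 79.4 and 79.5 CPM in TC4-2A cells and 97.1, 104 and 99.6 CPM in TL4-2A cells, against 89.7, 91 and 93.4 CPM in T-REx cells. The 3 lines did not overlap. SMARCA1 fell in TC4-2A cells (-0.19 ± 0.04 on the log2 scale, adjusted p = 2.04e-04) and rose in TL4-2A cells (0.13 ± 0.04, adjusted p = 0.0056), and TC4-2A lay below TL4-2A (-0.33 ± 0.04, adjusted p = 1.42e-08). The rise in TL4-2A cells was not called without TL4-2A replicate 2 (0.11, adjusted p = 0.0647).

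The partners of the ISWI ATPases direct them to chromatin. BAZ2B, a bromodomain protein, had 64.9, 70 and 70.9 CPM in TC4-2A cells and 116, 115 and 126 CPM in TL4-2A cells, against 74.4, 76.8 and 77.3 CPM in T-REx cells. All TL4-2A libraries were far above the rest, and all TC4-2A libraries just below those of T-REx. BAZ2B rose in TL4-2A cells by 0.64 ± 0.04 on the log2 scale (1.56-fold, adjusted p = 4.73e-15) and fell in TC4-2A cells by 0.15 ± 0.04 (adjusted p = 0.00815), a call that was lost without TC4-2A replicate 1 (-0.11, adjusted p = 0.0642). TC4-2A lay below TL4-2A by 0.79 ± 0.04 (adjusted p = 1.58e-17).

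BAZ1A (ACF1), which forms the ACF spacing complex with SMARCA5, was lower in both inserted lines. It had 186, 187 and 185 CPM in TC4-2A cells and 148, 165 and 162 CPM in TL4-2A cells, against 203, 200 and 196 CPM in T-REx cells, with no overlap between lines. The log2 fold changes were -0.10 ± 0.03 in TC4-2A cells (adjusted p = 0.013) and -0.34 ± 0.03 in TL4-2A cells (adjusted p = 9.98e-11). The call in TC4-2A cells ended without T-REx replicate 1 (-0.09, adjusted p = 0.0629) or replicate 2 (-0.10, adjusted p = 0.0527). BAZ1B (WSTF), BAZ2A (TIP5, of the nucleolar NoRC complex) and BPTF, the largest subunit of NURF, were each called higher in both lines, by 0.08 to 0.17 on the log2 scale. Some of these calls hung on 1 library: BAZ2A in TC4-2A cells was not called without TC4-2A replicate 2 (adjusted p = 0.109), BPTF in TC4-2A cells not without TC4-2A replicate 2 (0.128) or 3 (0.0571) or T-REx replicate 3 (0.0686), and BAZ1B in TL4-2A cells not without TL4-2A replicate 3 (0.126) or T-REx replicate 2 (0.101).

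**Figure D2:**
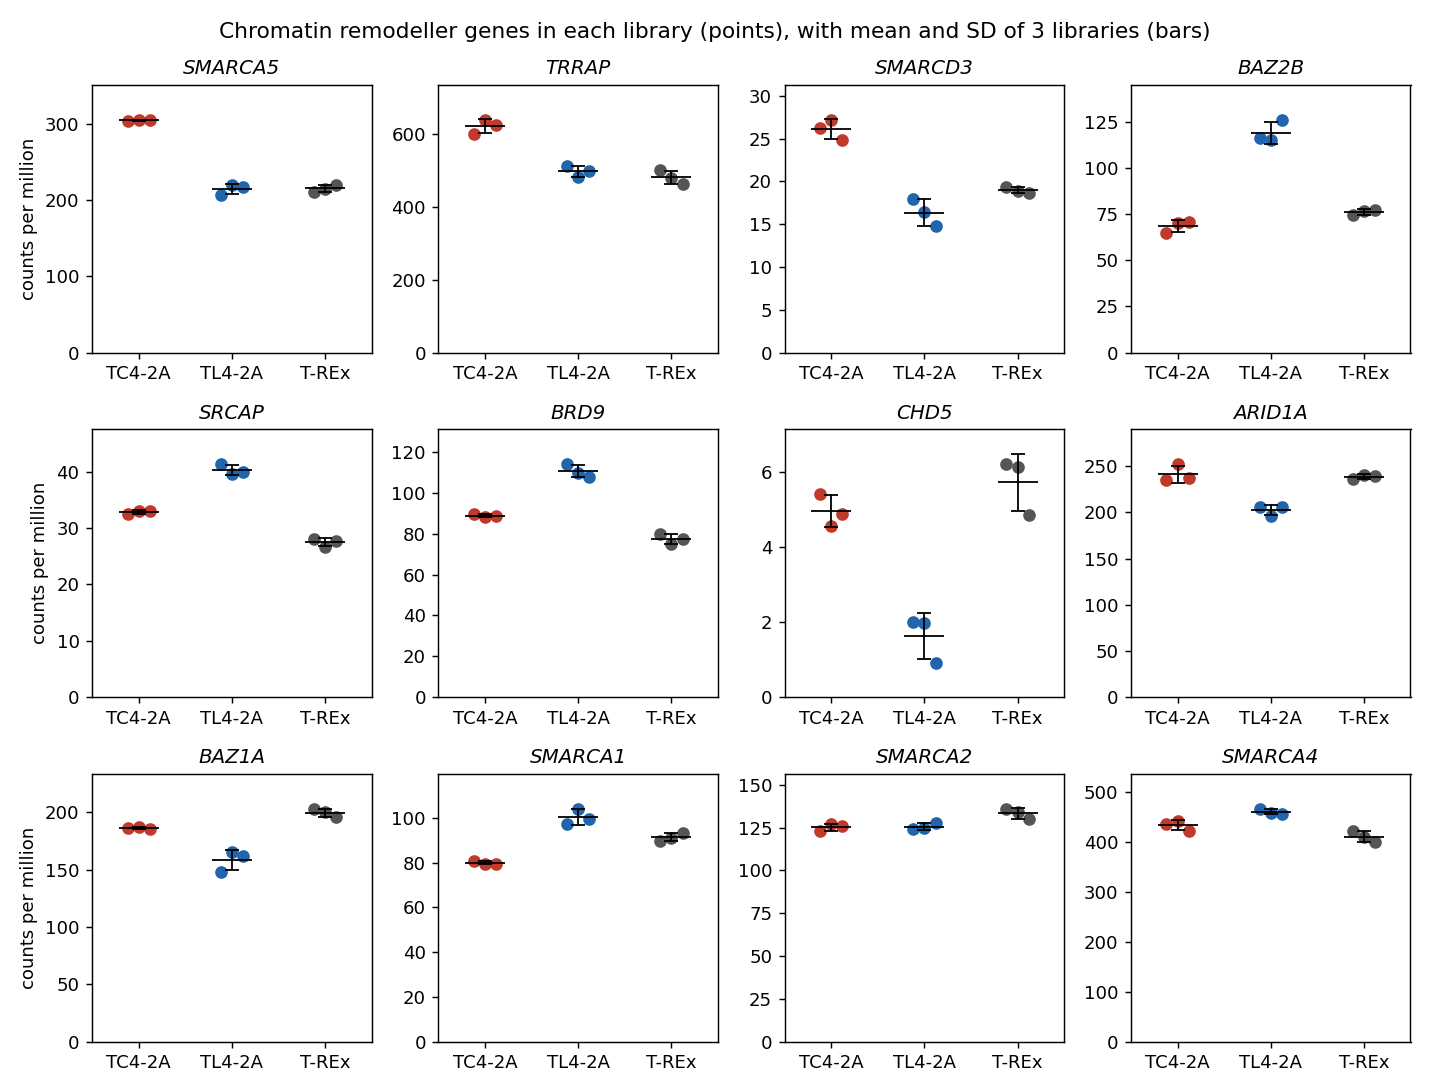
CPM (y axis, linear, starting at 0) of 12 remodeller genes in each library of TC4-2A (red), TL4-2A (blue) and T-REx (grey) cells; points are libraries and bars the mean and SD of 3. SMARCA5 and TRRAP were high in TC4-2A cells, BAZ2B, SRCAP and BRD9 highest in TL4-2A cells, and CHD5 lowest in TL4-2A cells.

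In SWI/SNF, the alternative ATPases moved apart. SMARCA4 (BRG1) had 436, 443 and 423 CPM in TC4-2A cells and 467, 459 and 457 CPM in TL4-2A cells, against 422, 410 and 400 CPM in T-REx cells. SMARCA4 rose in both, by 0.08 ± 0.03 (adjusted p = 0.0252) and 0.17 ± 0.03 (adjusted p = 4.22e-06) on the log2 scale. The rise in TC4-2A cells was not called without TC4-2A replicate 1 (adjusted p = 0.0614), TC4-2A replicate 2 (0.178), T-REx replicate 2 (0.0654) or T-REx replicate 3 (0.138). SMARCA4 was lower in TC4-2A than in TL4-2A cells (-0.09 ± 0.03, adjusted p = 0.0105), a call that did not hold under every alternative.

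SMARCA2 (BRM) had 123, 127 and 126 CPM in TC4-2A cells and 124, 125 and 128 CPM in TL4-2A cells, against 136, 134 and 130 CPM in T-REx cells. Its log2 fold change was -0.09 ± 0.03 in both lines (TC4-2A adjusted p = 0.0378, TL4-2A adjusted p = 0.033), and it did not differ detectably between them (adjusted p = 0.959). These calls were weak. That in TC4-2A cells ended without TC4-2A replicate 1 (adjusted p = 0.118) or 3 (0.0726) and without T-REx replicate 1 (0.145) or 2 (0.109), and that in TL4-2A cells without TL4-2A replicate 1 (0.107) or 2 (0.0964) and without T-REx replicate 1 (0.121) or 2 (0.0904). Both also ended under DESeq2 (adjusted p = 0.0697 for TC4-2A, 0.0643 for TL4-2A), and that in TC4-2A cells with no filter on low counts (0.0919) and with only the 2 lines fitted (0.0597).

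The core subunits of SWI/SNF gave 5 rises and 2 falls among 9 tested genes in TC4-2A cells, and 3 rises and 4 falls in TL4-2A cells, which is 77.8% called in each, against 50.3% and 63.5% of abundant genes. SMARCD3, SMARCE1, ACTL6A and SS18 lay below the abundance limit of those genes, so the shares are not of like abundance. SMARCB1 (SNF5), the core subunit lost in rhabdoid tumours, had 160, 154 and 160 CPM in TC4-2A cells and 165, 156 and 155 CPM in TL4-2A cells, against 135, 140 and 133 CPM in T-REx cells. It rose by 0.22 ± 0.03 on the log2 scale in each (adjusted p = 2.88e-06 and 1.13e-06), and the inserted lines overlapped. SMARCD1 (BAF60A), a scaffold subunit, had 160, 161 and 159 CPM in TC4-2A cells and 157, 160 and 158 CPM in TL4-2A cells, against 140, 141 and 140 CPM in T-REx cells, and rose by 0.19 ± 0.03 (adjusted p = 6.22e-06) and 0.18 ± 0.03 (adjusted p = 1.19e-05).

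Its paralogs SMARCD2 (BAF60B) and SMARCD3 (BAF60C), known from granulocytes and from heart and muscle, were called in opposite directions in the inserted lines. SMARCD3 had 26.3, 27.2 and 24.9 CPM in TC4-2A cells and 17.9, 16.4 and 14.8 CPM in TL4-2A cells, against 19.4, 18.9 and 18.7 CPM in T-REx cells. It rose in TC4-2A cells (0.46 ± 0.06, adjusted p = 2.98e-07) and fell in TL4-2A cells (-0.22 ± 0.07, adjusted p = 0.0112), and the inserted lines differed by 0.68 ± 0.07 (adjusted p = 9.57e-11). The fall in TL4-2A cells rested on TL4-2A replicate 3: without it the value was -0.15 (adjusted p = 0.107).

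SMARCD2 had 137, 130 and 133 CPM in TC4-2A cells and 114, 114 and 113 CPM in TL4-2A cells, against 116, 130 and 118 CPM in T-REx cells. T-REx replicate 2 stood apart from the other T-REx libraries and level with those of TC4-2A. SMARCD2 differed between TC4-2A and TL4-2A cells by 0.23 ± 0.04 (adjusted p = 6.84e-06). Against T-REx it was at 0.13 ± 0.04 in TC4-2A cells (adjusted p = 0.00538) and -0.09 ± 0.04 in TL4-2A cells (adjusted p = 0.045). The first call ended without T-REx replicate 1 (adjusted p = 0.0637), and the second without T-REx replicate 2 (-0.04, adjusted p = 0.451) or any TL4-2A replicate (0.0757, 0.0811 and 0.119), and under DESeq2 (0.0901).

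SS18, the subunit fused to SSX in synovial sarcoma, had 63, 62.3 and 64.3 CPM in TC4-2A cells and 66.7, 69.1 and 66.1 CPM in TL4-2A cells, against 72.1, 71 and 74.1 CPM in T-REx cells. It fell in TC4-2A cells (-0.20 ± 0.04, adjusted p = 5.58e-04). In TL4-2A cells the value was -0.10 ± 0.04 with an adjusted p of 0.0496, which crossed 0.05 without any of T-REx replicates 1, 2 and 3 (0.0764, 0.0616 and 0.161) and without TL4-2A replicate 1 (0.115) or 3 (0.139), under DESeq2 (0.087), with RLE scaling (0.0523) and with no filter (0.0533). ACTL6A (BAF53A), the actin-like subunit of dividing cells, had 49.9, 47.4 and 47.5 CPM in TC4-2A cells and 44.2, 45.6 and 50 CPM in TL4-2A cells, against 50.4, 53.2 and 55.6 CPM in T-REx cells, and was called lower in both (-0.14 ± 0.05, adjusted p = 0.0407, and -0.19 ± 0.05, adjusted p = 0.00313). The call in TC4-2A cells ended without TC4-2A replicate 2 (adjusted p = 0.103) or 3 (0.102) and without T-REx replicate 2 (0.0923) or 3 (0.199), under DESeq2 (0.0859) and with no filter (0.0574).

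The scaffolds SMARCC1 and SMARCC2 (BAF155 and BAF170) split between the lines. SMARCC1 had 323, 332 and 330 CPM in TC4-2A cells and 302, 302 and 310 CPM in TL4-2A cells, against 310, 300 and 303 CPM in T-REx cells. It rose in TC4-2A cells (0.11 ± 0.03, adjusted p = 0.0014) and was at 0.00 ± 0.03 in the TL4-2A line (adjusted p = 0.965). SMARCC2 had 277, 292 and 279 CPM in TC4-2A cells and 321, 304 and 311 CPM in TL4-2A cells, against 288, 281 and 280 CPM in T-REx cells. It rose in the TL4-2A line (0.14 ± 0.03, adjusted p = 8.66e-05) and was at 0.00 ± 0.03 in the TC4-2A line (adjusted p = 0.998). The direct comparison of TC4-2A with TL4-2A cells called both, SMARCC1 at 0.11 ± 0.03 (adjusted p = 0.00138) and SMARCC2 at -0.14 ± 0.03 (adjusted p = 1.03e-04). SMARCE1 was not called in any comparison.

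The subunits that tell the SWI/SNF versions apart followed no common direction. ARID1A, the large DNA-binding subunit of canonical BAF and often mutated in carcinomas, had 235, 252 and 237 CPM in TC4-2A cells and 206, 196 and 206 CPM in TL4-2A cells, against 236, 241 and 239 CPM in T-REx cells. It fell in TL4-2A cells (-0.24 ± 0.03, adjusted p = 5.22e-08) and was at 0.02 ± 0.03 in TC4-2A cells. ARID1A was higher in TC4-2A than in TL4-2A cells (0.25 ± 0.03, adjusted p = 1.35e-08). Its alternative ARID1B had 224, 224 and 226 CPM in TC4-2A cells and 239, 227 and 241 CPM in TL4-2A cells, against 210, 192 and 203 CPM in T-REx cells, and rose in both (0.15 ± 0.03, adjusted p = 1.63e-04, and 0.22 ± 0.03, adjusted p = 2.37e-07). The PHD-finger subunit DPF2 rose in both as well (0.16 ± 0.05 and 0.19 ± 0.05), the first call being lost without T-REx replicate 1 (adjusted p = 0.0543). Its paralogs DPF1 and DPF3 were not called against T-REx cells. DPF1 was higher in TC4-2A than in TL4-2A cells (0.20 ± 0.06, adjusted p = 0.00643), a call that did not hold under every alternative.

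BRD9, the bromodomain subunit of non-canonical BAF, had 89.7, 88.2 and 88.7 CPM in TC4-2A cells and 114, 110 and 108 CPM in TL4-2A cells, against 80, 74.8 and 77.4 CPM in T-REx cells. The 3 lines did not overlap. BRD9 rose by 0.20 ± 0.04 in TC4-2A cells (adjusted p = 1.48e-04) and by 0.52 ± 0.04 in TL4-2A cells (adjusted p = 1.91e-13), and TC4-2A lay below TL4-2A by 0.32 ± 0.04 (adjusted p = 2.26e-08). The PBAF subunits ARID2, PBRM1 and BRD7 were not called against T-REx cells, with log2 fold changes between -0.06 and 0.03. For PBRM1, for instance, TC4-2A cells had 139 to 140 CPM, TL4-2A cells 137 to 141 CPM and T-REx cells 138 to 141 CPM.

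Of the NuRD ATPases, CHD5 gave the largest change of the list. CHD5, expressed mainly in neurons and testis and described as a tumour suppressor at 1p36, had 5.4, 4.56 and 4.89 CPM in TC4-2A cells and 2, 1.98 and 0.914 CPM in TL4-2A cells, against 6.2, 6.12 and 4.85 CPM in T-REx cells. The level is low, at 91 to 108 reads per library in TC4-2A cells, 15 to 37 in TL4-2A cells and 93 to 132 in T-REx cells, yet the TL4-2A libraries were below all others. CHD5 fell in TL4-2A cells by 1.80 ± 0.19 on the log2 scale (0.288-fold, adjusted p = 4.36e-10). It was at -0.21 ± 0.14 in TC4-2A cells (adjusted p = 0.291), where the lines overlapped. The inserted lines differed by 1.58 ± 0.19 (adjusted p = 1.51e-08). Without TL4-2A replicate 3, the lowest library, the values were -1.53 and 1.31 and both stayed called.

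CHD4 (Mi-2β), the usual NuRD ATPase, had 27.1, 25.5 and 26.2 CPM in TC4-2A cells and 30.8, 30.6 and 34.5 CPM in TL4-2A cells, against 24, 27.3 and 26.4 CPM in T-REx cells. It rose in TL4-2A cells (0.30 ± 0.06, adjusted p = 3.88e-05), was at 0.02 ± 0.06 in TC4-2A cells (adjusted p = 0.862), and was lower in TC4-2A than in TL4-2A cells (-0.28 ± 0.06, adjusted p = 1.07e-04). CHD3 (Mi-2α) had 254, 244 and 240 CPM in TC4-2A cells and 260, 252 and 248 CPM in TL4-2A cells, against 228, 222 and 214 CPM in T-REx cells, and rose in both (0.15 ± 0.03, adjusted p = 1.23e-04, and 0.19 ± 0.03, adjusted p = 2.04e-06).

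Of the 9 other NuRD subunits, 4 rose and 1 fell in TC4-2A cells and 6 rose in TL4-2A cells, so that 55.6% and 66.7% were called, close to the 50.3% and 63.5% of abundant genes. MTA1, a metastasis-associated scaffold, had 244, 249 and 243 CPM in TC4-2A cells and 283, 281 and 262 CPM in TL4-2A cells, against 229, 222 and 223 CPM in T-REx cells. It rose by 0.13 ± 0.03 (adjusted p = 0.001) and 0.30 ± 0.03 (adjusted p = 1.74e-10), and TC4-2A lay below TL4-2A by 0.17 ± 0.03 (adjusted p = 1.47e-05). The deacetylases HDAC1 and HDAC2 differed in pattern. HDAC1 rose in TL4-2A cells (181, 174 and 168 CPM, against 146, 150 and 151 CPM in T-REx cells, log2 fold change 0.23 ± 0.03, adjusted p = 9.84e-07) and was at 0.05 ± 0.03 in TC4-2A cells. HDAC1 was lower in TC4-2A than in TL4-2A cells (-0.18 ± 0.03, adjusted p = 4.46e-05). HDAC2 fell in TC4-2A cells (189, 183 and 180 CPM, against 192, 201 and 202 CPM in T-REx cells, -0.11 ± 0.03, adjusted p = 0.00639), a call lost without T-REx replicate 3 (adjusted p = 0.0535). Between the inserted lines HDAC2 did not differ detectably (-0.06 ± 0.03, adjusted p = 0.153).

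The remaining NuRD changes were of 0.16 or less on the log2 scale. MBD3, MTA2 and the zinc-finger subunit GATAD2A were called higher in both lines and GATAD2B in TL4-2A cells (0.13 ± 0.03, adjusted p = 2.96e-04), while MBD2, which binds methylated DNA, and MTA3 were called in neither. Of these, MTA2 in TC4-2A cells was not called without TC4-2A replicate 1 (adjusted p = 0.143) or T-REx replicate 2 (0.0859). MBD3 in TL4-2A cells was not called without TL4-2A replicate 1 (0.0658) or T-REx replicate 3 (0.0641). GATAD2A in TL4-2A cells was not called without TL4-2A replicate 2 (0.0504) or T-REx replicate 2 (0.0555) or 3 (0.0664).

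The CHD ATPases outside NuRD include readers of H3K4 methylation (CHD1) and CHD7, the CHARGE syndrome gene. In TC4-2A cells 0 of the 6 were called by edgeR (3 at an unadjusted p under 0.05) and 0 by DESeq2, with log2 fold changes between -0.06 and 0.07. CHD9 was called there without TC4-2A replicate 1 (0.09, adjusted p = 0.0407). In TL4-2A cells CHD2 (0.17 ± 0.03, adjusted p = 1.26e-04), CHD6 (0.15 ± 0.03, adjusted p = 2.05e-04) and CHD7 (0.16 ± 0.03, adjusted p = 6.04e-05) rose, and CHD1, CHD8 and CHD9 were not called, CHD1 passing the test without TL4-2A replicate 3 (-0.09, adjusted p = 0.0255). CHD7 had 216, 223 and 227 CPM in TC4-2A cells and 238, 229 and 243 CPM in TL4-2A cells, against 219, 209 and 209 CPM in T-REx cells. Directly compared, CHD2, CHD6, CHD7 and CHD8 were lower in TC4-2A than in TL4-2A cells, by 0.08 to 0.13 on the log2 scale. Of these, CHD6 was not called without TL4-2A replicate 1 (adjusted p = 0.0736), CHD7 not without TC4-2A replicate 1 (0.0927) or TL4-2A replicate 3 (0.0963), and CHD8 not without TC4-2A replicate 2 (0.0763), TL4-2A replicate 1 (0.115) or TL4-2A replicate 3 (0.0573).

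In the INO80, SRCAP and TIP60 group, 4 of 6 genes rose in TC4-2A cells, 3 of 6 rose in TL4-2A cells, and the others were not called. Of the abundant genes, 50.3% and 63.5% were called, in either direction. SRCAP, the ATPase that deposits H2A.Z, had 32.5, 33.1 and 33 CPM in TC4-2A cells and 41.3, 39.6 and 39.9 CPM in TL4-2A cells, against 28, 26.7 and 27.7 CPM in T-REx cells. The 3 lines did not overlap. SRCAP rose by 0.26 ± 0.05 in TC4-2A cells (adjusted p = 5.07e-05) and by 0.55 ± 0.05 in TL4-2A cells (1.47-fold, adjusted p = 4.68e-12), and TC4-2A lay below TL4-2A by 0.29 ± 0.05 (adjusted p = 3.72e-06). Most of its exon bases are shared, as given above, and which of its reads were counted is not known.

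EP400 (p400), the second H2A.Z-depositing ATPase, had 245, 256 and 247 CPM in TC4-2A cells and 257, 251 and 263 CPM in TL4-2A cells, against 235, 222 and 228 CPM in T-REx cells. It rose by 0.13 ± 0.03 (adjusted p = 7.83e-04) and 0.17 ± 0.03 (adjusted p = 1.24e-05). INO80 had 62.3, 63.3 and 63.8 CPM in TC4-2A cells and 63, 61.9 and 61.6 CPM in TL4-2A cells, against 59.9, 59 and 58.3 CPM in T-REx cells. Every library of the inserted lines was above every T-REx library, but neither value passed the test (0.10 ± 0.04, adjusted p = 0.1, and 0.07 ± 0.04, adjusted p = 0.18).

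TRRAP, a giant pseudokinase scaffold of the TIP60 and SAGA acetyltransferase complexes, had 601, 640 and 627 CPM in TC4-2A cells and 513, 484 and 499 CPM in TL4-2A cells, against 501, 480 and 464 CPM in T-REx cells. The TC4-2A libraries stood above all others. TRRAP rose in TC4-2A cells (0.37 ± 0.03, adjusted p = 1.7e-12), was at 0.05 ± 0.03 in TL4-2A cells (adjusted p = 0.193), and was higher in TC4-2A than in TL4-2A cells (0.32 ± 0.03, adjusted p = 3.49e-11). Without T-REx replicate 1 the TL4-2A value was 0.08 and passed the test (adjusted p = 0.0458). The helicase RUVBL1 rose by 0.11 ± 0.03 in each line (adjusted p = 0.00667 and 0.00521), and its partner RUVBL2 was not called (TC4-2A 0.04 ± 0.03, adjusted p = 0.444, and TL4-2A 0.07 ± 0.03, adjusted p = 0.0598, or 0.0471 without T-REx replicate 2). RUVBL1 was not called in TC4-2A cells without TC4-2A replicate 2 (adjusted p = 0.0583).

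The SNF2 ATPases ATRX and HELLS serve heterochromatin. ATRX, which places histone H3.3 with DAXX, had 326, 342 and 343 CPM in TC4-2A cells and 348, 365 and 385 CPM in TL4-2A cells, against 347, 343 and 343 CPM in T-REx cells. HELLS (LSH), needed for DNA methylation of repeats, had 346, 358 and 356 CPM in TC4-2A cells and 372, 380 and 374 CPM in TL4-2A cells, against 342, 337 and 355 CPM in T-REx cells. Both rose in TL4-2A cells (ATRX 0.09 ± 0.03, adjusted p = 0.0173, and HELLS 0.12 ± 0.03, adjusted p = 2.92e-04) and not detectably in TC4-2A cells (-0.03 ± 0.03, adjusted p = 0.466, and 0.04 ± 0.03, adjusted p = 0.347). The ATRX call ended without TL4-2A replicate 3 (0.05, adjusted p = 0.222), T-REx replicate 2 (0.056) or T-REx replicate 3 (0.0526). Directly compared, both were lower in TC4-2A than in TL4-2A cells (ATRX -0.12 ± 0.03, adjusted p = 0.00168, and HELLS -0.09 ± 0.03, adjusted p = 0.0104). This HELLS call did not hold under every alternative.

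Taking genes in pairs removes anything that scales both genes alike within a library. Not all of the pairs are alternative subunits: RUVBL1 and RUVBL2 work together, and INO80 and SRCAP belong to different complexes. The log2 ratio of SMARCA1 to SMARCA5 was -1.93 ± 0.01 in the TC4-2A line and -1.10 ± 0.02 in the TL4-2A line, against -1.24 ± 0.01 in T-REx cells (SD, n = 3 each), so that SMARCA1 made up 20.8%, 31.9% and 29.8% of the CPM of the pair. Such shares are not corrected for the length of the genes. Per kb of exon, the level of SMARCA1 was 0.489, 0.873 and 0.792 times that of SMARCA5 in the same order. The BAZ2A to BAZ2B ratio was 1.94 ± 0.08 and 1.21 ± 0.11, against 1.68 ± 0.05. For SMARCD1 to SMARCD3 it was 2.61 ± 0.05 and 3.28 ± 0.15, against 2.88 ± 0.03. SMARCC1 to SMARCC2 was at 0.22 ± 0.03 and -0.03 ± 0.05, against 0.11 ± 0.01. In these pairs the inserted lines lay on opposite sides of T-REx cells.

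In some other pairs both inserted lines lay on the same side. The ratio of SMARCA2 to SMARCA4 was -1.79 ± 0.04 in the TC4-2A line and -1.88 ± 0.04 in the TL4-2A line, against -1.62 ± 0.01 in T-REx cells, and SMARCA2 made up 22.4%, 21.4% and 24.5% of the CPM of the pair. Per kb of exon, SMARCA2 was at 0.236, 0.222 and 0.266 times the level of SMARCA4. BRD7 to BRD9 was at 0.98 ± 0.02 and 0.59 ± 0.07, against 1.16 ± 0.04. ARID1A to ARID1B was at 0.10 ± 0.06 and -0.22 ± 0.01, against 0.24 ± 0.08, where the TC4-2A libraries overlapped those of T-REx. RUVBL1 to RUVBL2, which assemble into mixed rings, was at -0.01 ± 0.06, -0.05 ± 0.03 and -0.08 ± 0.03, and all 3 lines overlapped. Of the 24 pairs, some of which share a gene, the libraries did not overlap for 16 in TC4-2A against T-REx, 20 in TL4-2A against T-REx and 18 between the inserted lines. Without the 3 pairs that hold CHD4 or SRCAP, these counts were 14, 18 and 15 of 21. With 3 libraries a side an exact permutation test (2-sided) cannot go below p = 0.1, which these pairs reached. For single genes, libraries did not overlap in 40.3%, 51.6% and 44.9% of all genes tested, in the same order of comparisons. The share over other pairs of genes was not computed. The pair counts therefore do not show whether remodeller pairs differ from other pairs.

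**Figure D3:**
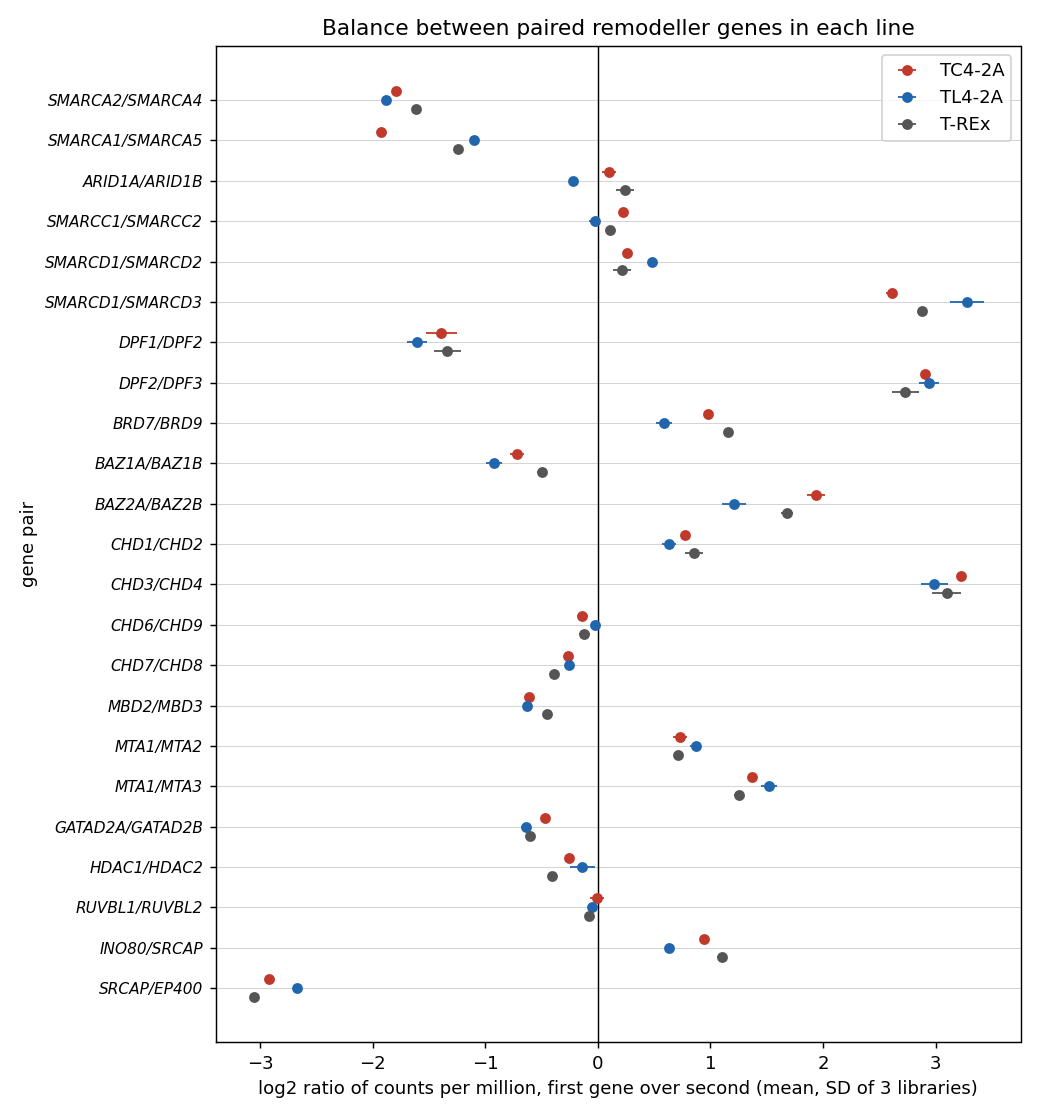
Log2 ratio of CPM between paired remodeller genes (x axis, first gene over second, mean and SD of 3 libraries) in TC4-2A (red), TL4-2A (blue) and T-REx (grey) cells for 23 of the 24 pairs; ACTL6A/ACTL6B is left out because ACTL6B had 2 to 8 reads per library. The SMARCA1/SMARCA5 ratio was -1.93 in TC4-2A cells, far left of the other lines, while RUVBL1/RUVBL2 nearly coincided.

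Genes near each other on a chromosome can move together, so each gene was set beside the median log2 fold change of the 10 tested genes on each side of it. In TC4-2A cells SMARCA5 at 0.50 stood beside a neighbour median of 0.55, SMARCD3 at 0.46 beside 0.41 and TRRAP at 0.37 beside 0.37; SMARCA5 lies on chromosome 4, SMARCD3 and TRRAP on chromosome 7. In TL4-2A cells BAZ2B on chromosome 2 at 0.64 stood beside 0.52, CHD4 on chromosome 12 at 0.30 beside 0.33, and ARID1A on chromosome 1 at -0.24 beside -0.48. For these genes the neighbourhood moved about as far as the gene or further.

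Other genes moved away from their neighbours. CHD5 at -1.80 in TL4-2A cells stood beside a median of -0.36. In the same cells SRCAP at 0.55 stood beside 0.13, and BRD9 at 0.52 beside 0.05, or 0.23 with 5 genes on each side. SMARCD3 fell in TL4-2A cells (-0.22) while its neighbours were at 0.15, and SMARCD2 was at -0.09 beside 0.24. The sign of the gene and of its neighbours was the same for 25 of the 29 genes called in TC4-2A cells. It was the same for 24 of the 36 called in TL4-2A cells and 16 of the 26 called between the inserted lines. Some neighbour medians lay near 0, such as 0.02 for BAZ1B and MTA2 in TC4-2A cells, where the sign carries little. The share over all called genes was not computed, so these counts are not shown to be particular to remodellers. What part the neighbourhood has in these results was not tested.

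**Figure D4:**
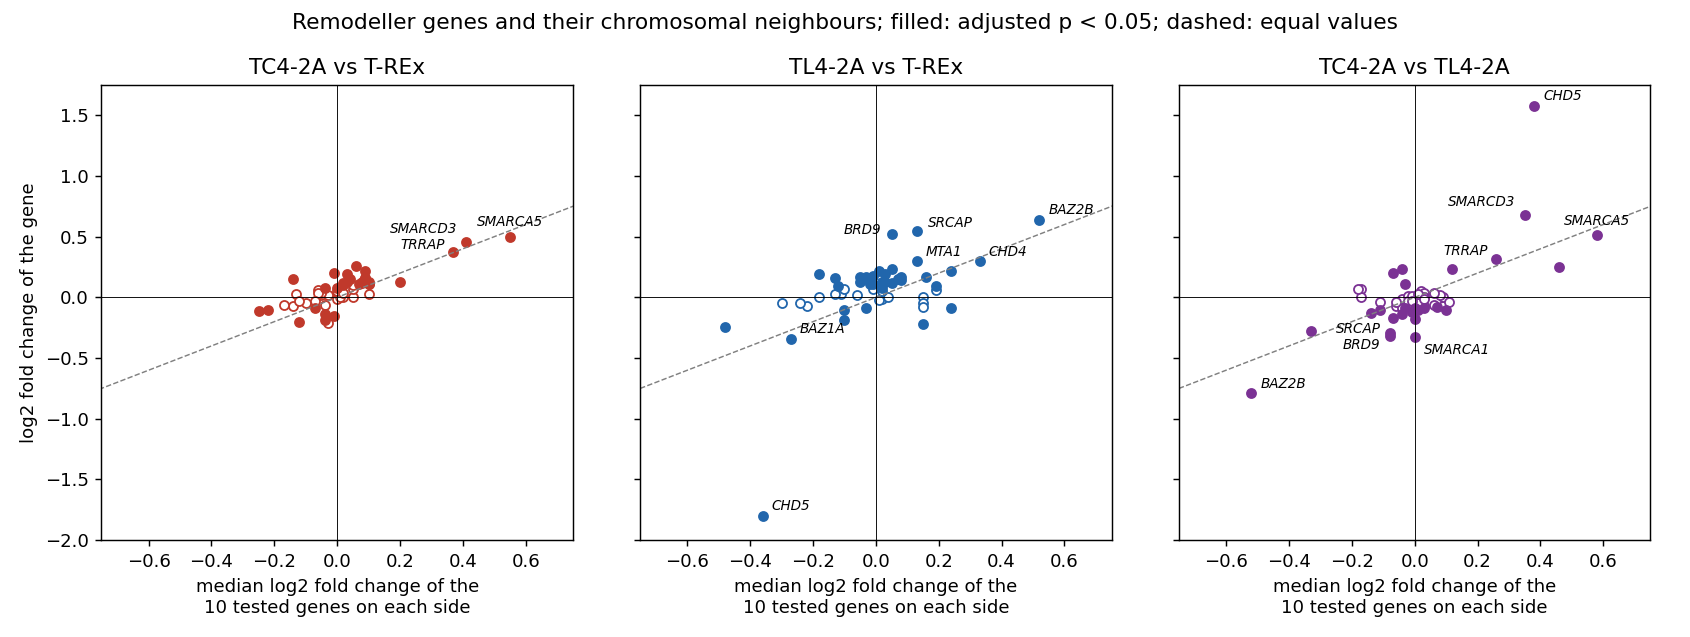
Log2 fold change of each tested remodeller gene (y axis) against the median of the 10 tested genes on each side of it (x axis), for TC4-2A against T-REx (left), TL4-2A against T-REx (middle) and TC4-2A against TL4-2A (right); filled points had an adjusted p under 0.05 and the dashed line marks equal values. SMARCA5, SMARCD3 and TRRAP in TC4-2A cells and BAZ2B in TL4-2A cells lie close to the line, while CHD5, BRD9, SRCAP and SMARCD3 in TL4-2A cells lie off it.

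Another 59 genes for accessory subunits and further SNF2 ATPases were counted the same way. In TC4-2A cells 11 rose and 8 fell, in TL4-2A cells 17 rose and 11 fell, and between the inserted lines TC4-2A had 16 higher and 13 lower, which is 32.2%, 47.5% and 49.2% of the list, against 28.8%, 44.3% and 35.4% of all genes. The median log2 fold changes were 0.051, 0.039 and 0.001. Among the genes called, the largest rises in TC4-2A cells were those of ING3 (0.40 ± 0.05), a TIP60 subunit that reads H3K4 methylation, ZNHIT1 (0.32 ± 0.05) of the SRCAP complex and MRGBP (0.30 ± 0.05) of TIP60. ING3 had 49.8, 46.6 and 48.9 CPM in TC4-2A cells and 38.7, 38.8 and 39.9 CPM in TL4-2A cells, against 36.4, 37.7 and 36.3 CPM in T-REx cells. ING3 and ZNHIT1 lie on chromosome 7, beside neighbour medians of 0.31 and 0.40, and that of MRGBP was 0.16.

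The largest called falls in TC4-2A cells were those of PWWP2B (-0.64 ± 0.12), a PWWP-domain partner of NuRD, RBBP7 (-0.43 ± 0.03) and ERCC6L (-0.17 ± 0.06), the mitotic DNA translocase PICH. PWWP2B lies on chromosome 10 beside a neighbour median of -0.45, and ERCC6L beside 0.13. RBBP7 (RbAp46), a histone chaperone shared by NuRD and NURF, had 335, 331 and 336 CPM in TC4-2A cells and 310, 315 and 308 CPM in TL4-2A cells, against 446, 456 and 447 CPM in T-REx cells. It fell in both inserted lines, by 0.43 ± 0.03 (adjusted p = 3.38e-16) and 0.53 ± 0.03 (adjusted p = 5.85e-19), beside neighbour medians of -0.11 and -0.19 on chromosome X.

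In TL4-2A cells the largest called rises were those of INO80D (0.81 ± 0.05), EPC2 (0.65 ± 0.05) and CDCA7 (0.55 ± 0.04), a subunit each of INO80 and TIP60 and the partner of HELLS. All 3 lie on chromosome 2, as BAZ2B does, beside neighbour medians of 0.44, 0.46 and 0.45. INO80D had 54.5, 57.5 and 56.5 CPM in TC4-2A cells and 100, 91.8 and 98.8 CPM in TL4-2A cells, against 54, 57 and 54.7 CPM in T-REx cells. The largest called falls were those of RBBP7, ACTR6 (-0.33 ± 0.06), the SRCAP actin-related subunit, and BICRAL (-0.24 ± 0.06) of non-canonical BAF, with neighbour medians of -0.08 for ACTR6 and 0.01 for BICRAL. Between the inserted lines the largest called differences were BICRAL (0.39 ± 0.06), ZNHIT1 (0.37 ± 0.05) and ING3 (0.31 ± 0.05), higher in TC4-2A cells, and INO80D (-0.79 ± 0.05), EPC2 (-0.61 ± 0.05) and CDCA7 (-0.48 ± 0.04), lower in TC4-2A cells.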

How the data were processed

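Total RNA was depleted of rRNA and made into strand-specific paired-end libraries, 3 per line, after 96 h of Dox. Per the study's methods and the submitters' processing notes, the authors mapped reads with HISAT2 to GRCh38, assigned them to Gencode v33 genes with featureCounts (Subread) and tested with DESeq2, with versions and strand setting not given in the sources used here. Deposited values are raw whole-number counts per gene. Further deposited tables hold the authors' own fold changes and p-values and were not used. From the count table, 60648 lines were used and 3 damaged lines left out, none of them a remodeller. Groups came from sample titles.

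edgeR 4.0.16 (R 4.3.3) was run with filterByExpr, TMM scaling, all 9 libraries and a term per line (glmQLFit and glmQLFTest, 2-sided), with Benjamini-Hochberg adjustment over 19473 genes. Fold changes are log2, with SE. On data simulated for TC4-2A against T-REx (19150 genes), 36.7% of 1.2-fold, 63.3% of 1.5-fold, 86.0% of 2-fold and 95.9% of 4-fold changes were recovered, with 10 false calls among 149. The simulation changed far fewer genes than the 5607 called in the data, and drew them at any abundance. Its rates therefore do not describe recovery among the more abundant remodellers. Replicate libraries differed by more than sampling noise. Symbols, exon lengths and gene coordinates came from Gencode v44 on GRCh38. Alternatives were RLE scaling, DESeq2 1.42.0, no filter, at least 10 counts in every library, only the 2 lines compared, a replicate block, each library left out, 5 or 20 neighbours, and longest-transcript lengths.

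The members, complexes, pairs and gene lists were chosen with earlier results of these data known. Named with full values were, per comparison, the 8 called members with the largest absolute log2 fold change, 10 ATPases whether called or not, members called in opposite directions and members failing the filter; of the other genes, the 3 largest rises and falls per comparison. A few further members were given after their values were seen. The background of abundant genes and the counts without the 3 genes that share 10% or more of their exon bases on the same strand were added after seeing the data.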

Additional observations from a re-analysis of the deposited data

Results flagged for a closer look

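Against T-REx cells, 4 remodeller genes had calls of opposite sign in the circular-RNA line TC4-2A and the linear-RNA line TL4-2A. Each also differed between the inserted lines in the direct edgeR test. Calls of opposite sign against the same libraries all but fix that outcome, so the direct test is no separate support. Of all genes, 1.39% were called higher with TC4-2A and lower with TL4-2A, and 1.3% the other way round; both comparisons share the T-REx libraries. SMARCA1 was at -0.19 with TC4-2A and 0.13 with TL4-2A, a difference of -0.33 on the log2 scale (adjusted p = 1.42e-08). SMARCD2 was at 0.13 and -0.09, a difference of 0.23 (adjusted p = 6.84e-06). SMARCD3 was at 0.46 and -0.22, a difference of 0.68 (adjusted p = 9.57e-11). BAZ2B was at -0.15 and 0.64, a difference of -0.79 (adjusted p = 1.58e-17). The direct differences held under every alternative run. The smaller of the changes against T-REx did not: SMARCA1 and SMARCD3 in TL4-2A cells and BAZ2B in TC4-2A cells each lost the call without 1 library, and SMARCD2 lost both of its calls, that in TL4-2A cells without any of 4 libraries. Groups of 3 libraries were not tested for an outlying library.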

How the results depend on the processing

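No fold change of a called remodeller gene changed sign under any alternative. Of the 29 genes called in TC4-2A and the 36 called in TL4-2A cells against T-REx, 17 and 27 were called under every alternative, and of the 26 called between the inserted lines 19 were. Leaving out each library in turn gave 24 to 29, 31 to 36 and 23 to 28 called genes. DESeq2 called 27, 33 and 25, and no filter on low counts left 27, 32 and 21. Beside the calls named in the report, that filter setting ended those of BAZ1B (adjusted p = 0.0723), MBD3 (0.0734) and GATAD2A (0.104) in TL4-2A cells against T-REx, and of ARID2 (0.117), CHD6 (0.0528), CHD7 (0.0684), CHD8 (0.109) and HELLS (0.0614) between the inserted lines; ARID2 was also lost under DESeq2 (0.0634) and with only the 2 lines fitted (0.0571). Without SRCAP, CHD4 and SMARCE1, which share 10% or more of their exon bases on the same strand, 28, 34 and 24 of 50 were called. Same-numbered libraries did not deviate together (correlations between -0.029 and 0.03), so no pairing by number was detected. Such correlations cannot tell whether same-numbered libraries were grown or prepared together, which is not given in the sources used here. With the replicate number as a block, 29, 36 and 26 genes were called, and none of the 159 calls changed. With 5 or 20 neighbours on each side in place of 10, 133 and 149 of 159 neighbour medians stayed within 0.1. The same sign was seen for 22 and 23 of 29, 26 and 22 of 36, and 17 and 15 of 26 called genes. Levels per kb depend on the length used: 157 of 162 moved by more than 1 SD with the longest transcript. Depth limits CHD5 in TL4-2A cells (15 to 37 reads) and ACTL6B (2 to 8 reads).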
